A study of Homo sapiens with 6 samples.

Results

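The genes described here are 7 airway ion and water transport genes in Calu-3, an established human cell line derived from a lung adenocarcinoma. They are CFTR, SCNN1A, SLC12A2, ANO1, KCNQ1, AQP5 and AQP3. The study mapped EHF, a transcription factor of epithelial cells that belongs to the ETS family, and the histone modifications H3K4me1 and H3K27ac by chromatin immunoprecipitation and sequencing (ChIP-seq) in Calu-3 cells grown in low-glucose medium with serum, and the labels name no treatment. It holds 2 EHF libraries called against a first input library, and 1 H3K4me1 and 1 H3K27ac library called against a second. Members were the called intervals of all 4 lists that share at least 1 bp with a window of each gene's span plus about 50 kb on each side. That gave 96 intervals of 73341 in the series: 0 of 1537 EHF peaks of replicate 1, 5 of 5216 of replicate 2, 44 of 31950 H3K4me1 regions and 47 of 34638 H3K27ac regions. All positions of intervals are hg19 and counted from 1.

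The windows were CFTR at 117.07 to 117.36 Mb of chromosome 7, SCNN1A at 6.41 to 6.54 Mb and AQP5 at 50.31 to 50.41 Mb of chromosome 12, and SLC12A2 at 127.37 to 127.58 Mb of chromosome 5. ANO1 was at 69.87 to 70.09 Mb and KCNQ1 at 2.42 to 2.92 Mb of chromosome 11, and AQP3 at 33.39 to 33.50 Mb of chromosome 9. Their edges are given to 10 kb. Drawing each window in by 50 kb gave the approximate gene span used below, and the end of that span on the side where transcription begins is called the start edge. The span matched the gene length in RefSeq (GRCh38.p14) to within 10 kb for all genes but ANO1. For ANO1 the span was 120 kb and the RefSeq gene 224 kb, so the window may leave out part of that gene. The part left out may include the start, so the ANO1 start edge need not lie at the gene's start. An hg19 annotation was not used here, so exons, introns and exact start sites cannot be assigned.

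The surface of the airways is kept wet by salt and water moved across the epithelium. Chloride enters the cell from the blood side through SLC12A2, the sodium, potassium and chloride cotransporter NKCC1. It leaves into the airway through CFTR, the cAMP-regulated anion channel mutated in cystic fibrosis, and through ANO1, a calcium-activated chloride channel. KCNQ1 is a potassium channel whose current helps to keep up the driving force for chloride exit. SCNN1A is the alpha subunit of the epithelial sodium channel, which takes up sodium from the airway surface, and AQP5 and AQP3 are water channels (AQP3 also passes glycerol). Calu-3 cells are widely used to study CFTR-dependent secretion. H3K4me1 is found at enhancers, H3K27ac at active enhancers and promoters, and ETS factors such as EHF bind DNA around the core letters GGAA.

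The EHF peaks closest to a gene's start edge were those at CFTR, so the bases before the CFTR start are shown first. With them are those of SLC12A2, AQP5 and AQP3, which had an H3K27ac region at or within 3 kb of the start edge and no EHF peak there. These are the 250 bases before the start site in the RefSeq promoter table (GRCh38.p14), which held 5 of the 7 genes. They lie at chr7:117479775-117480024 (plus strand), chr5:128083516-128083765 (plus strand), chr12:49961622-49961871 (plus strand) and chr9:33447594-33447843 (minus strand). These positions are in another build than the peaks and cannot be set against them, so it was not analysed here whether a peak covers these bases. Capitals mark GGAA, or TTCC where the other strand reads GGAA.
CFTR: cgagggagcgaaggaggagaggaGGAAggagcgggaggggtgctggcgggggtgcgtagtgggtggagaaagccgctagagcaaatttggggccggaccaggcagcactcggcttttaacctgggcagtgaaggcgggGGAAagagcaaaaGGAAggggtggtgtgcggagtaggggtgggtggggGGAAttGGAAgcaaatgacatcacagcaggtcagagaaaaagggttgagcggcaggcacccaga
SLC12A2: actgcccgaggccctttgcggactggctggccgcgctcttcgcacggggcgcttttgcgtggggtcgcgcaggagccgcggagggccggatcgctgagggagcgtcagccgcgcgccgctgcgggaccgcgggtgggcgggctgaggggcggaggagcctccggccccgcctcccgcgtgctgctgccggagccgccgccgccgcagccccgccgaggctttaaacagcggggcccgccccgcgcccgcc
AQP5: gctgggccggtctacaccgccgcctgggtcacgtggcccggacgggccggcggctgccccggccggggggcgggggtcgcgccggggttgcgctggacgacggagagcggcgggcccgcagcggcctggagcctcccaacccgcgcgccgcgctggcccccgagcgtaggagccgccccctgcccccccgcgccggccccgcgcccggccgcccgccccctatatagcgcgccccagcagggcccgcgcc
AQP3: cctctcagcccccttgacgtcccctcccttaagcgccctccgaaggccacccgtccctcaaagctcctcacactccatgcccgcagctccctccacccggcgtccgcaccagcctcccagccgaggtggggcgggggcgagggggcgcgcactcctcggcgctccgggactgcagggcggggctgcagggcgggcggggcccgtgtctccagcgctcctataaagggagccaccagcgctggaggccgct
The CFTR sequence held 5 matches to GGAA, all on the strand shown, and 3 of them continued as GGAAG. The other 3 sequences, and that of ANO1, held 0 matches on either strand. Of the 35116 upstream sequences in the table, 92.7% held at least 1 GGAA on either strand, 7.26% held none and 18.6% held 5 or more. At least 1 GGAAG, which always contains a GGAA, was found in 65.1%. None of the 5 sequences held CGGAAG or CCGGAAGT on either strand, which were found in 16.5% and 3.42% of the table. The CFTR sequence had a GC content of 61.2%, and the others had 79.6% (SLC12A2), 84.4% (AQP5), 73.6% (AQP3) and 78.0% (ANO1). The part of base composition in these counts was not tested.

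EHF was called in 3 of the 7 windows, and by replicate 2 alone. The CFTR window held 3 peaks, the SCNN1A window 1 and the AQP3 window 1, and the windows of SLC12A2, ANO1, KCNQ1 and AQP5 held 0. For background, the genome was tiled at each window's width. At least 1 replicate 2 peak was found in 28.0% of tiles as wide as the CFTR window, 15.8% for SCNN1A, 13.8% for AQP3, 22.3% for SLC12A2, 23.1% for ANO1, 38.7% for KCNQ1 and 12.8% for AQP5. At least 3 peaks, as at CFTR, were found in 4.98% of the 290 kb tiles. In replicate 1 the share of tiles with a peak was 4.49% at the width of AQP5, 4.90% at AQP3, 5.68% at SCNN1A, 8.74% at SLC12A2, 9.06% at ANO1, 11.6% at CFTR and 17.6% at KCNQ1. None of the 7 windows had such a peak.

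The first CFTR peak lay at 117075546 to 117075670 on chromosome 7, 44.4 kb before the start edge. Its deposited score, the tag count scaled by the authors to 10000000 tags per library, was 17 in replicate 2, and no peak was called there in replicate 1. The second, at 117119332 to 117119456, scored 14, and the third, at 117119759 to 117119883, scored 10. Both lay within 1 kb of the CFTR start edge, which is itself known only to 10 kb. Their centres were 427 bp apart. Of all replicate 2 peaks, 2.22% had another with its centre within 500 bp. This measure was not among the planned comparisons, so the share is no test of the pair. The score of 17 was reached by 21.4% of the replicate 2 list, 14 by 33.2% and 10 by 86.0%, so the peaks were of ordinary height, beside a list median of 12.

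The SCNN1A peak lay at 6451204 to 6451328 on chromosome 12 and scored 12. It was on the far side of the gene from its start edge, 8.7 kb beyond the other end of the span. The neighbouring protein-coding gene on that side in RefSeq order is TNFRSF1A, a receptor for tumour necrosis factor. The AQP3 peak lay at 33473839 to 33473963 on chromosome 9, 23.9 kb upstream of the AQP3 start edge on the side of NOL6, and scored 8, a height that 97.4% of the list reached. All 5 peaks thus lay outside the spans as rounded, the CFTR pair by less than 1 kb.

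None of the 5 peaks was found in replicate 1. Over the whole list 14.7% of replicate 2 peaks were, and 10.3% of those with scores of 8 to 17, the range of these 5. At 5 peaks, 0 found is compatible with any share below 52.2% (exact 95% binomial limit; 60.0% if 3 counts are taken as the floor), so a share like that of the list was not distinguishable at this number. A shared EHF site lay just outside the SCNN1A window. It was called at 6404457 to 6404607 in replicate 1 (score 9) and at 6404504 to 6404628 in replicate 2 (score 15), 5.39 and 5.37 kb below the window and inside an H3K27ac region.

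In the windows without an EHF peak, the closest replicate 2 peaks outside lay at very different distances. For KCNQ1 it was at 2920857 to 2920981 on chromosome 11 (score 13), 0.857 kb past the window's upper edge. For AQP5 it was at 50419453 to 50419577 on chromosome 12 (score 15), 9.45 kb past the upper edge. For SLC12A2 the distance was 74.7 kb (127295162 to 127295286 on chromosome 5, score 13), and for ANO1 it was 612 kb (69257623 to 69257747 on chromosome 11, score 12). The first 2 counts of 0 therefore depend on where the windows end. The closest replicate 1 peaks lay 713 kb (SLC12A2), 1700 kb (ANO1), 1860 kb (KCNQ1) and 4350 kb (AQP5) away.

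Each of the 5 EHF peaks overlapped an H3K27ac region (exact 95% interval 47.8% to 100%), against 63.8% of the whole replicate 2 list. The AQP3 peak did so by 38 bp at the end of a region and its centre lay 25 bp outside, so by peak centre the count was 4 of 5, against 61.9%. None of the 5 overlapped an H3K4me1 region, against 7.98% of the list. The AQP3 peak alone had an H3K4me1 region within 2000 bp of its centre, at 1132 bp, against 41.8% of the list. For the CFTR peaks the nearest H3K4me1 region was 8940, 5571 and 5144 bp from the centre, and for the SCNN1A peak 2890 bp. With 5 peaks, none of these shares can be told from that of the list. Counted from the other side, 5 of the 47 H3K27ac regions overlapped a replicate 2 peak (10.6%, against 8.99% of the list), 1 of them with the peak just past the KCNQ1 window. None overlapped a replicate 1 peak, against 2.65%.

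The CFTR window held 13 H3K27ac regions that covered 12.6% of its bases, against 2.10% of the genome. As much coverage was found in 1.74% of tiles of that width. Most of the strong signal lay before the gene and at its start edge. The highest-scoring region, at 117082519 to 117089143 (6625 bp, score 413), was centred 34.2 kb before the start edge, and 2.76% of all H3K27ac regions scored as high. It held 2 H3K4me1 regions, at 117084548 to 117085215 (score 22) and 117086929 to 117087429 (score 16), and no EHF peak.

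A neighbouring region at 117074144 to 117078833 (4690 bp, score 292) held the first EHF peak and no H3K4me1. The region at 117117733 to 117122503 (4771 bp, score 228) spanned the start edge and held the EHF pair, again without H3K4me1. It was the 1 region of 47 in the windows with 2 EHF peaks, and 0.551% of the whole H3K27ac list held 2 or more. So of the 3 strongest H3K27ac regions at CFTR, the 2 with EHF peaks had no H3K4me1 region, and the one with H3K4me1 regions had no EHF peak. With 3 regions this cannot be told from the list. There 8.99% of H3K27ac regions of all widths overlapped a replicate 2 peak, and 64.4% of those at least 3000 bp wide overlapped H3K4me1. The EHF shares of 8.99% and 0.551% were not computed for wide regions alone, so they are not matched to these 3 regions in width. The H3K27ac region that crosses the upper edge of the KCNQ1 window overlapped both a replicate 2 peak and H3K4me1.

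Inside the CFTR span the widest H3K27ac region scored low for its width. The widest region of the window, at 117240347 to 117247604 (7258 bp), scored 165, or 22.7 per kb, against 62.3 per kb in both regions upstream and a median of 29.9 per kb on the rest of chromosome 7. Only 2.02% of all H3K27ac regions were as wide. A region at 117227700 to 117230353 (2654 bp, score 95, 35.8 per kb) was above that median. It overlapped 1 H3K4me1 region, as did one at 117255828 to 117257969 (2142 bp, score 62, 28.9 per kb). So did a smaller one near the start edge, at 117125407 to 117126802 (1396 bp, score 37, 26.5 per kb). No EHF peak was called inside the span. At the upper end of the window, on the side of CTTNBP2, a region at 117355102 to 117358960 (3859 bp, score 187) held 2 H3K4me1 regions.

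CFTR had 10 H3K4me1 regions, 2.60% of the window, against 0.764% of the genome, and 8.00% of tiles were covered as much. The strongest, at 117129110 to 117131159 (2050 bp, score 43), was centred 10.1 kb inside the start edge and had no H3K27ac region over it. The nearest H3K27ac region was 3332 bp from its centre. A further 2, at 117284954 to 117286005 (score 24) and 117315067 to 117315567 (score 10), were also without H3K27ac. The other 7 overlapped it.

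**Figure D1:**
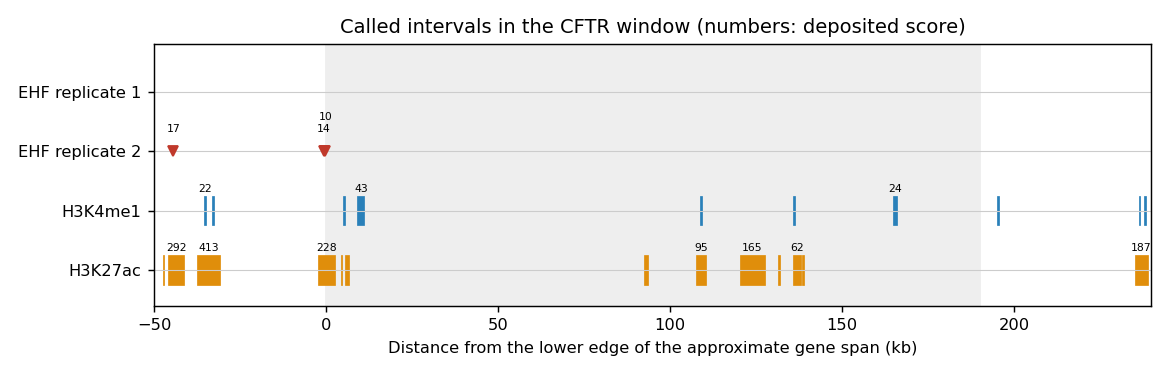
Called intervals in the CFTR window, 1 row per list, by distance in kb from the lower edge of the approximate gene span (grey), which is the start edge of CFTR. Bars are mark regions, triangles EHF peaks, and numbers deposited scores (H3K27ac from 50, H3K4me1 from 20). The 3 EHF peaks lie at or before the start edge, over H3K27ac regions that scored 292 and 228, and the replicate 1 row is empty.

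SCNN1A was the member with the densest marks. H3K27ac covered 19.8% of its window in 10 regions, which 0.884% of tiles of that width reached, and H3K4me1 covered 5.10% in 8 regions, which 2.71% reached. The widest region of all 7 windows lay inside the span, at 6479264 to 6487031 (7768 bp, score 306), towards the start edge at 6.49 Mb. It carried 1 H3K4me1 region at its end away from the start, at 6479237 to 6480196 (score 25). A second region, at 6492418 to 6494708 (2291 bp, score 155), lay 2.42 kb past the start edge, on the side of the neighbouring gene LTBR. The rounding of the edge does not tell which of the 2 regions, if either, holds the SCNN1A start site. Whether the second belongs to LTBR was not tested.

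On the TNFRSF1A side the window held 2 more strong regions. The first, at 6442892 to 6447554 (4663 bp), had the highest score of the window, 309, and overlapped 3 H3K4me1 regions, the most of any region here. The second, at 6448774 to 6451935 (3162 bp, score 180), held the EHF peak and no H3K4me1. With the region at 6470416 to 6473728 inside the span (3313 bp, score 150), 5 of the 10 regions scored 150 or more. Only 1 of the 8 H3K4me1 regions, at 6432056 to 6432691 (score 13), was without H3K27ac. The 2 highest-scoring ones, both at 33, were at 6442813 to 6444225 and 6454156 to 6455521. The second of these lay over a narrow H3K27ac region, at 6454806 to 6455433 (score 13). The span, 30 kb of the 130 kb window, held 11.1 of the 25.8 kb of H3K27ac. The TNFRSF1A side held 11.7 kb, and which gene that part belongs to was not tested.

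SLC12A2 combined 1 strong H3K27ac region with many H3K4me1 regions that lay apart from it. The region at 127416218 to 127421856 (5639 bp, score 353) spanned the start edge at 127.42 Mb, and 3.62% of the list scored as high. An H3K4me1 region at 127415913 to 127416545 (score 23) covered its upstream end, and none lay at its downstream end. The next H3K27ac region by score was at 127534059 to 127536379 (2321 bp, score 98), 5.2 kb past the other end of the span. It overlapped the H3K4me1 region at 127533530 to 127535012 (score 40). The remaining 2 H3K27ac regions scored 33 and 11, and the weaker, at 127388883 to 127389383, overlapped H3K4me1. In all, 4.33% of the window was in H3K27ac, and 15.7% of tiles were covered as much.

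H3K4me1 covered nearly as much of the SLC12A2 window, 4.17% in 11 regions, and 3.41% of tiles were covered as much. Of the 11, 8 overlapped no H3K27ac region. They included the highest-scoring H3K4me1 region of all 7 windows, at 127428783 to 127430469 (1687 bp, score 45), which lay 9.6 kb inside the start edge. H3K27ac was 7770 bp from its centre. Only 4.15% of all H3K4me1 regions scored 45 or more. Another, at 127486904 to 127487944 (1041 bp, score 32), lay mid-gene, and the nearest H3K27ac was 46635 bp away. CFTR and SLC12A2 thus both had an H3K27ac region across the start edge and, about 10 kb further in, a strong H3K4me1 region outside H3K27ac. This likeness was picked after the values were seen, and the start edges are known only to 10 kb. Over the list, 70.5% of H3K4me1 regions that scored 30 or more overlapped H3K27ac and the rest did not.

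ANO1 and KCNQ1 had the lowest H3K27ac coverage, with the windows as given. In the ANO1 window H3K27ac covered 2.15% in 4 regions and H3K4me1 0.683% in 3, and 29.9% and 32.0% of tiles were covered as much. The region closest to the ANO1 start edge, 4.92 kb outside it, was small (69914449 to 69915082, 634 bp, score 14) and lay over an H3K4me1 region with a score of 10. Since the span is shorter than the RefSeq gene, that edge may not be the gene's start, and marks at the start may be missed. The one region within the span, at 70006121 to 70006621, scored 9. The 2 that scored higher lay past the other end of the span on the side of FADD, at 70048750 to 70050952 (2203 bp, score 89) and 70079098 to 70080500 (1403 bp, score 61). Each of the 3 H3K4me1 regions overlapped H3K27ac, and the highest-scoring one, at 70050876 to 70051376 (501 bp, score 15), lay at the end of the region that scored 89.

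The KCNQ1 window, the largest at 500 kb, held 6 H3K27ac regions (1.43% of its bases, 44.4% of tiles covered as much) and 8 H3K4me1 regions (1.35%, 19.6% of tiles). Its H3K27ac coverage was the lowest of the 7 windows and below the genome's 2.10%, but with windows widened by 50 kb it was 4.26%, above the genome and above ANO1 (2.41%), SLC12A2 (3.30%) and AQP3 (3.88%). With the spans alone ANO1 was lowest, at 0.417%, and KCNQ1 was at 0.697%. No H3K27ac region lay within 10 kb of the start edge. The first inside the gene, 13.8 kb from that edge, was at 2483771 to 2484696 (926 bp, score 17), and overlapped the window's highest-scoring H3K4me1 region (2483840 to 2485463, 1624 bp, score 37). The highest-scoring H3K27ac region, at 2919239 to 2921482 (2244 bp, score 88), crossed the upper window edge on the side of CDKN1C, and the EHF peak described above lay in it just past the edge. Another at 2420584 to 2422572 (1989 bp, score 65) lay at the lower edge on the side of TRPM5. Also in the upper flank, the region at 2912539 to 2914173 (1635 bp, score 47), overlapped an H3K4me1 region with a score of 28. Inside the span the highest score was 43, at 2554478 to 2555838.

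The water channel genes differed in H3K27ac. AQP5 had 5 regions covering 8.74% of its window (6.60% of tiles covered as much). Of these, 1 was strong, at 50352657 to 50357789 (5133 bp, score 232), and the other 4 scored 11 to 37. The strong region ended 2.2 kb below the 50.36 Mb point to which the span of this short gene rounds. That point is known only to 10 kb, so the gap does not tell whether the region holds the AQP5 start. The strong region carried the window's sole H3K4me1 region, at 50353110 to 50353736 (627 bp, score 15), near its upstream end. H3K4me1 covered 0.627% of the window, the lowest of the 7 genes (27.9% of tiles covered as much).

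AQP3 also had 5 H3K27ac regions, but they covered 3.86% (17.4% of tiles) and the highest score was 46. That region, at 33445503 to 33447063 (1561 bp), lay inside the span 2.94 kb from the start edge and was without H3K4me1 and EHF. The EHF peak touched a region of the smallest size called, 501 bp, at 33473376 to 33473876 (score 13). The 3 H3K4me1 regions all scored 14. They covered 1.79% of the window (13.7% of tiles), and 1 of them, at 33415909 to 33416700, overlapped H3K27ac (33415905 to 33416540, score 13).

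**Figure D2:**
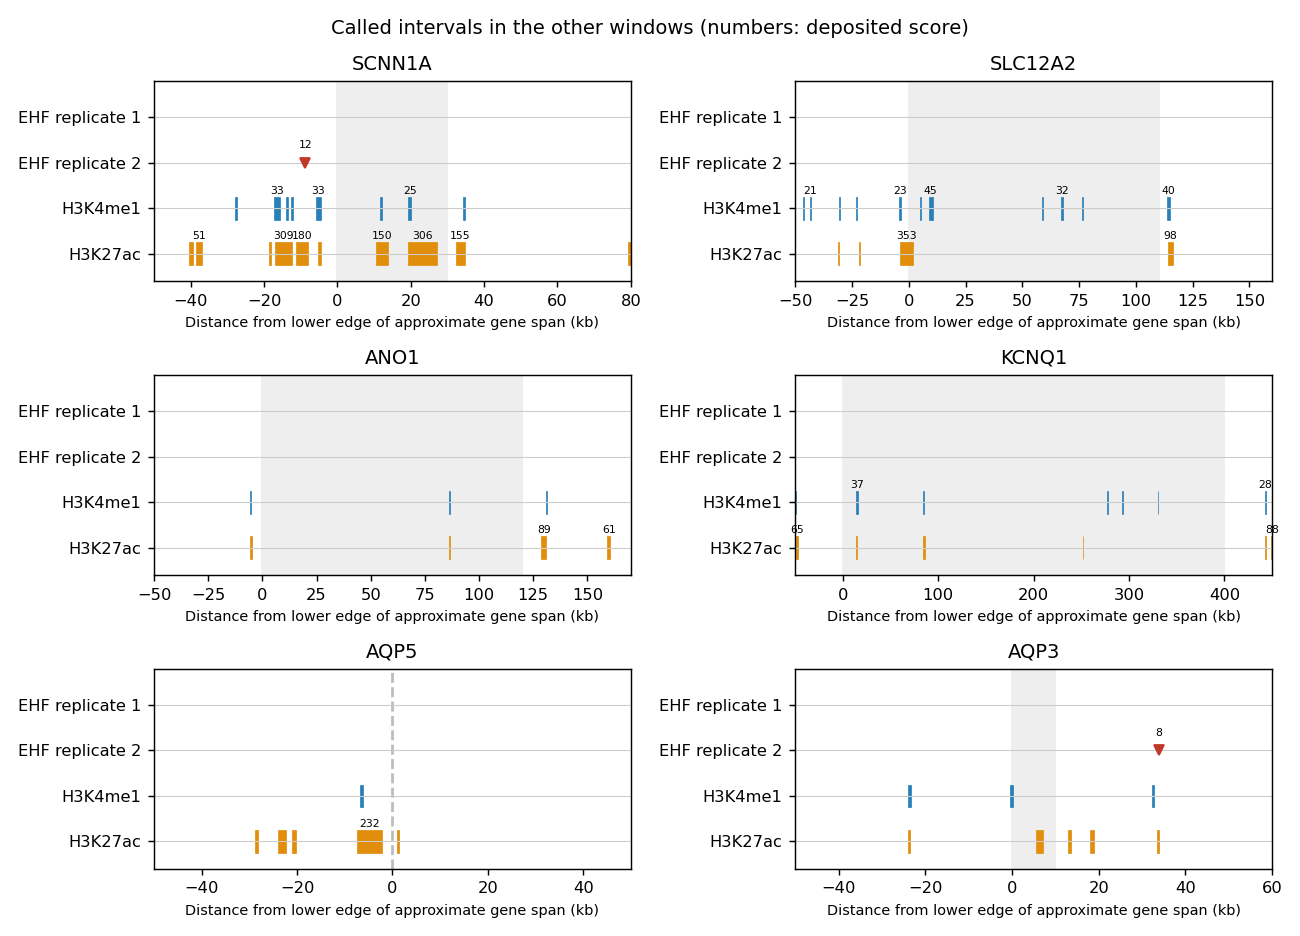
Called intervals in the windows of the other 6 genes, by distance in kb from the lower edge of the approximate gene span (grey, or a dashed line for AQP5, whose span rounds to 0 kb). SCNN1A and AQP3 are transcribed towards lower coordinates, the others towards higher ones, and numbers are deposited scores. EHF peaks appear in the SCNN1A and AQP3 windows (scores 12 and 8), and SLC12A2 shows H3K4me1 regions apart from its H3K27ac regions.

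Side by side, H3K27ac coverage ran from 19.8% (SCNN1A), 12.6% (CFTR) and 8.74% (AQP5) through 4.33% (SLC12A2) and 3.86% (AQP3) to 2.15% (ANO1) and 1.43% (KCNQ1). H3K4me1 gave another order, with SCNN1A at 5.10%, SLC12A2 at 4.17%, CFTR at 2.60%, AQP3 at 1.79%, KCNQ1 at 1.35%, ANO1 at 0.683% and AQP5 at 0.627%. These orders depend on the window. With the spans alone H3K27ac covered 36.9% of SCNN1A, 15.6% of AQP3, 9.77% of CFTR and 1.69% of SLC12A2, and AQP5 has no span of its own at this rounding. With windows widened by 50 kb it covered 15.4% of SCNN1A, 10.7% of CFTR, 5.56% of AQP5, and 4.26% of KCNQ1. Each mark has 1 library, so whether neighbours in these orders differ beyond the spread between cultures cannot be said. Over all 1.56 Mb of the windows, 6.17% lay in H3K27ac and 2.16% in H3K4me1.

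**Figure D3:**
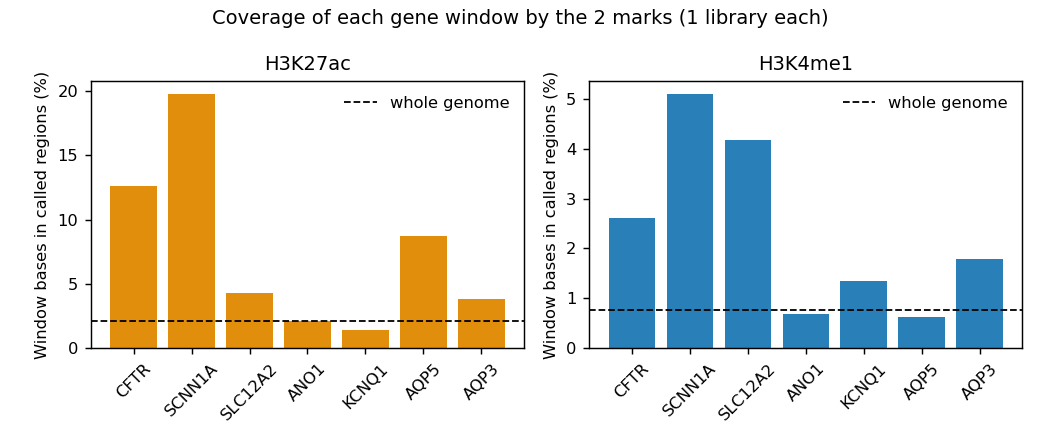
Percent of each gene window covered by called H3K27ac (left) and H3K4me1 (right) regions, with the share of the genome as a dashed line (2.10% and 0.764%). Bars are single values from 1 library, with no error. SCNN1A is highest for both marks, and KCNQ1 lies below the line for H3K27ac in these windows but above it (4.26%) in windows widened by 50 kb. For H3K4me1, ANO1 (0.683%) and AQP5 (0.627%) lie below the line.

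The H3K27ac regions of the windows were 501 to 7768 bp wide, and 1.67% of the list was at least as wide as the widest of them. Of the 47, 12 scored 150 or more (25.5%, against 13.4% of the list). CFTR and SCNN1A had 5 each, SLC12A2 and AQP5 1 each, and ANO1, KCNQ1 and AQP3 none. Scores rise with width, and per kb 23 of the 47 were at or above the list median, or 48.9% against 50.4%. The median score per kb was 47.4 in the SLC12A2 window and 31.6 on the rest of chromosome 5. In SCNN1A and AQP5 it was 35.3 and 23.8, against 30.6 on the rest of chromosome 12. In ANO1 and KCNQ1 it was 31.2 and 30.2, both above that of the rest of chromosome 11, and in AQP3 it was 20.4 against 23.7 on the rest of chromosome 9. For CFTR it was 26.5, below the 29.9 of the rest of chromosome 7 given above. These medians count narrow and wide regions alike. Summed score over summed width was 54.5 per kb for SLC12A2, 46.7 for SCNN1A, 42.2 for CFTR and 36.5 for ANO1. For AQP5 it was 35.8, for KCNQ1 31.2 and for AQP3 23.6. This value was not computed for the rest of each chromosome.

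**Figure D4:**
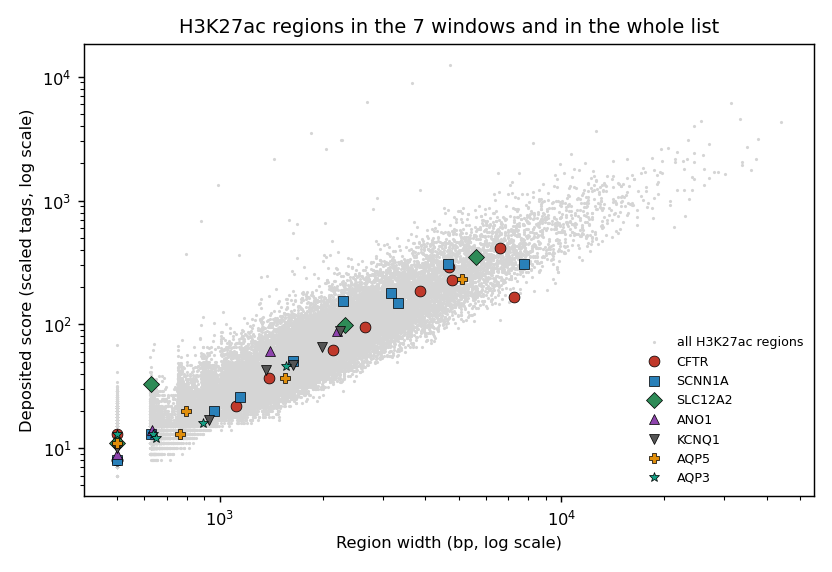
Deposited score against width (both log scales) of all 34638 H3K27ac regions (grey dots) and of the 47 regions in the 7 windows (symbols by gene). The members lie within the cloud of the list, and the regions that score 150 or more belong to CFTR, SCNN1A, SLC12A2 and AQP5.

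The marks coincided in part. Of the 47 H3K27ac regions, 23 overlapped H3K4me1 (48.9%, exact 95% interval 34.1% to 63.9%, against 34.5% of the list). By region centre the share was 9 of 47 (19.1%, interval 9.15% to 33.3%), against 14.7% of the list. By gene the counts were 5 of 13 for CFTR, 5 of 10 for SCNN1A, 3 of 4 for SLC12A2, 3 of 4 for ANO1, 5 of 6 for KCNQ1, 1 of 5 for AQP5 and 1 of 5 for AQP3. Wide regions were near the share of the list, with 7 of the 11 that were at least 3000 bp wide (63.6%, against 64.4%). Narrower ones gave 16 of 36 (44.4%, interval 27.9% to 61.9%, against 29.0%). Of the 44 H3K4me1 regions, 27 overlapped H3K27ac (61.4%, interval 45.5% to 75.6%, against 45.2%), and 16 of these 27 reached past an end of the H3K27ac region (59.3%, against 46.9%). Of the 7 that scored 30 or more, 4 overlapped it (57.1%, against 70.5%). The 17 without H3K27ac were 8 in SLC12A2, 3 in CFTR, 3 in KCNQ1, 2 in AQP3 and 1 in SCNN1A. These shares describe positions within single libraries. The windows were chosen with earlier results of these data known, so they are no test against the list.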

How the data were processed

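ChIP-seq intervals of 4 Calu-3 libraries were used. Neither input library was used directly. The submitters' processing notes name Bowtie 1.0.0, HOMER 1.2 and the build hg19. Per the file headers, HOMER findPeaks called each library separately (factor style for EHF, histone style for marks, stitched from 500 bp windows), with a false discovery rate of 0.01, 4-fold over input and, for EHF, 4-fold over the surrounding 10 kb. The deposited score is, per the file headers, the normalized tag count, which the authors scaled to 10000000 tags. It has no error of its own. A missing interval means only that none passed these rules. Depth was 10176290 and 8418631 tags for EHF replicates 1 and 2, 12989646 for H3K4me1 and 21426939 for H3K27ac.

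Overlap meant at least 1 bp (Python 3.11.15, numpy 2.4.6, pandas 2.3.3, scipy 1.17.1). Overlap, coverage and merging were tested on simulated data. The background tiled each chromosome, unmappable parts included, up to the last interval of any list. Intervals on shares are exact binomial and cover counting error only, and tags and neighbouring regions are not independent. No p-values were computed: EHF forms 1 group and each mark has 1 library. Nothing in the labels says that the EHF libraries came from separate cultures. Named intervals were every EHF peak, the widest and highest-scoring region of each mark per window, regions with both marks, and the nearest outside EHF peak. Other mark regions were named after their values were seen. The genes and lists were chosen with earlier results of these data known. The directions of SCNN1A and KCNQ1 are textbook knowledge, and those of the other 5 genes come from the promoter table. A list of 26 further transport genes was not analysed here, since no hg19 annotation was used.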

Additional observations from a re-analysis of the deposited data

How the results depend on the processing

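Of 32 alternative values over 5 results, 18 stayed within the exact binomial interval of the reported value or, for the count of peaks, within 1.5 times of it. For coverage the interval took each base as a trial, although bases are not independent. It was therefore very narrow, and small changes fell outside it. The 18 include values that could not change. EHF replicate 1 and the KCNQ1 window held no EHF peak, so leaving either out keeps all 5. Merging mark regions cannot undo an overlap of an EHF peak with H3K27ac. The 5 EHF peaks, counted over both replicates, became 0 with the gene spans alone, where the CFTR pair lies just outside a rounded edge. The count was 3 with scores at or above the list median and 13 with windows widened by 50 kb. Of these 13, 1 was a replicate 1 peak. It was at the shared site below the SCNN1A window, which therefore counted once in each list. In the windows as given, the count was 0 without EHF replicate 2 and 5 without replicate 1. The share of H3K27ac regions with H3K4me1 fell from 48.9% to 19.6% by region centre, where a region also had to have its centre in the window (9 of 46). H3K27ac coverage of 6.17% became 4.23% with spans alone, 5.05% with the score limit, 6.30% with regions merged across 1000 bp gaps and 8.40% without KCNQ1. H3K4me1 coverage of 2.16% became 1.83%, 1.69%, 2.21% and 2.55% in the same order, and 2.19% with widened windows. The share of EHF peaks in H3K27ac was 80.0% by centre and also when 50% of the shorter interval had to overlap, and could not be computed with spans alone or without EHF replicate 2, which leave no peak. The causes were not tested beyond what each alternative leaves out. In EHF replicate 1, 15751 of 10176290 tags lay in peaks, and in replicate 2, 62312 of 8418631; the part of this in the missing replicate 1 peaks was not tested. No paired analysis was possible because EHF alone has replicate numbers and no fit between groups was made.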
